A study of Mus musculus with 2 samples.

Results

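NRF2 is a transcription factor that the adaptor KEAP1 marks for degradation in resting cells. Oxidants and electrophiles modify KEAP1, so that NRF2 accumulates, pairs with a small MAF protein and binds antioxidant response elements in the promoters and enhancers of its targets. Many of those targets encode reductases that consume NADPH and enzymes that regenerate it, and they protect epithelia such as that of the gut from reactive compounds. Described here are 10 genes counted among NRF2 targets, taken by name from the 31053 genes of a UMI count table: the quinone reductase gene *Nqo1*, the thioredoxin reductase gene *Txnrd1*, the sulfiredoxin gene *Srxn1*, the carbonyl and aldehyde reductase genes *Cbr1*, *Cbr3* and *Akr1b8*, the haem oxygenase gene *Hmox1*, the UDP-glucose dehydrogenase gene *Ugdh*, and the NADPH-producing pentose phosphate genes *G6pdx* and *Pgd*. They were chosen by name, with no threshold on a measured value but with earlier results of these data known. Counts of these genes beside the share of all genes are thus a description, not a test of the set.

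Small intestinal organoids, which are epithelial structures grown from isolated crypts in Matrigel, were compared after 24 h with NRG1, EREG or EGF at 100 ng/ml each. EGF and EREG bind the receptor EGFR, whereas NRG1 binds ERBB3, which signals together with ERBB2. The crypts came from 2 WT mice of strain C57BL/6J, 2 to 4 months old, in 2 experiments, and which mouse went into which experiment was not stated. All organoids first grew for 3 days in medium with EGF at 50 ng/ml, Noggin and R-spondin 1, with Y-27632 in the first 2 days, and then went 24 h without an EGF family ligand. That medium also held the antioxidant N-acetylcysteine at 1 µM, so every group, EGF included, had met it. There were 18 libraries, 3 per ligand and experiment, called replicates. Nothing states that these were separate cultures, and the p-values thus reflect how far libraries differ.

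Library totals lay between 1311420 and 1891243 UMIs. Levels are CPM, each library's UMIs scaled to a common total after TMM normalization, and because 1 tag is counted per transcript end they were not divided by length and are not compared between genes. Marker lists were summed as CPM of the library total, without TMM. The sum of the 9 intestinal epithelium markers lay between 6168 and 11850 in the 18 libraries, while the 9 fibroblast and smooth muscle markers summed to at most 27.4, the 7 immune markers to at most 13.7 and the 6 endothelial and glial markers to at most 3.98. At 0 in every library were 1 of the 9 fibroblast and smooth muscle markers (*Des*), 2 of the 6 endothelial and glial markers (*Cdh5* and *Kdr*) and none of the epithelial ones. In such bulk RNA, fewer cells of a type and less RNA per cell cannot be told apart.

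The promoters of the genes show where elements of NRF2 type lie near their start sites, and are given for that reason. RefSeq promoters of GRCm38.p6, from 250 bases before to 50 after a start, were found for 9 of the 10 genes, 12 promoters in all. The core of the antioxidant response element, TGACNNNGC on either strand, occurred in a promoter of 5 of these 9 genes, and in 14% of all 27025 genes with a promoter and 12.4% of all 32851 promoters. The AP-1 element TGANTCA, which reads the same on both strands, occurred in 1 of the 9 genes, *Srxn1*, and in 8.97% of all genes with a promoter and 7.81% of promoters. The sites follow 5′ to 3′ with the motif in capitals, and each is a match of letters rather than a measured binding site.
*Txnrd1* core, chr10:82859104-82859132, minus strand: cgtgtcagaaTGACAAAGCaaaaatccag
*Srxn1* core, chr2:152105542-152105570, minus strand: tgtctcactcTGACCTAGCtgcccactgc
*Srxn1* AP-1, chr2:152105412-152105438, plus strand: tcggagggccTGAGTCAccacgctgtg
*Srxn1* AP-1, chr2:152105469-152105495, plus strand: aaattcacccTGAGTCAgcggccgggc
*Ugdh* core, chr5:65435956-65435984, minus strand: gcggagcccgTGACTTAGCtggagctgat
*Ugdh* core, chr5:65435918-65435946, plus strand: ccgaactgtaTGACCACGCcccttgagga
*G6pdx* core, chrX:74428919-74428947, plus strand: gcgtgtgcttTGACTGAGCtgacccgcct
*Pgd* core, chr4:149166061-149166089, minus strand: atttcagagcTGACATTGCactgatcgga
None of these cores overlapped an AP-1 match. The windows of *Nqo1*, *Cbr1*, *Cbr3* and *Akr1b8* held neither set of letters, which says nothing of elements farther away.

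Most of these genes were higher with NRG1 than with EGF or EREG, and no difference between EREG and EGF could be shown. No library came from organoids left without a ligand. A gain with NRG1 and a loss with the other ligands thus cannot be told apart. A rise, a fall or a response below is a difference from the ligand named. Against EGF, 8 of the 10 genes passed the test with a higher level under NRG1 and none with a lower one, where 6.05% of the 12152 genes tested were called higher (edgeR quasi-likelihood test, adjusted p under 0.1, 18 libraries in 1 fit). Their median log2 fold change was 0.68, beside −0.01 over all genes tested. Against EREG, all 10 were called higher under NRG1, where 6.56% of all genes were, with a median of 0.76 beside −0.02. Between EREG and EGF none of the 10 was called by edgeR, nor by DESeq2, which gave 4 of them no adjusted p. None had an unadjusted edgeR p under 0.05, beside 664 of the 12152 genes tested. Of all genes 0.00823% were called, and the median of the 10 was 0.06. The comparisons with EGF share the same 6 EGF libraries, and the NRG1 libraries serve in 2 of the 3 comparisons.

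**Figure D1:**
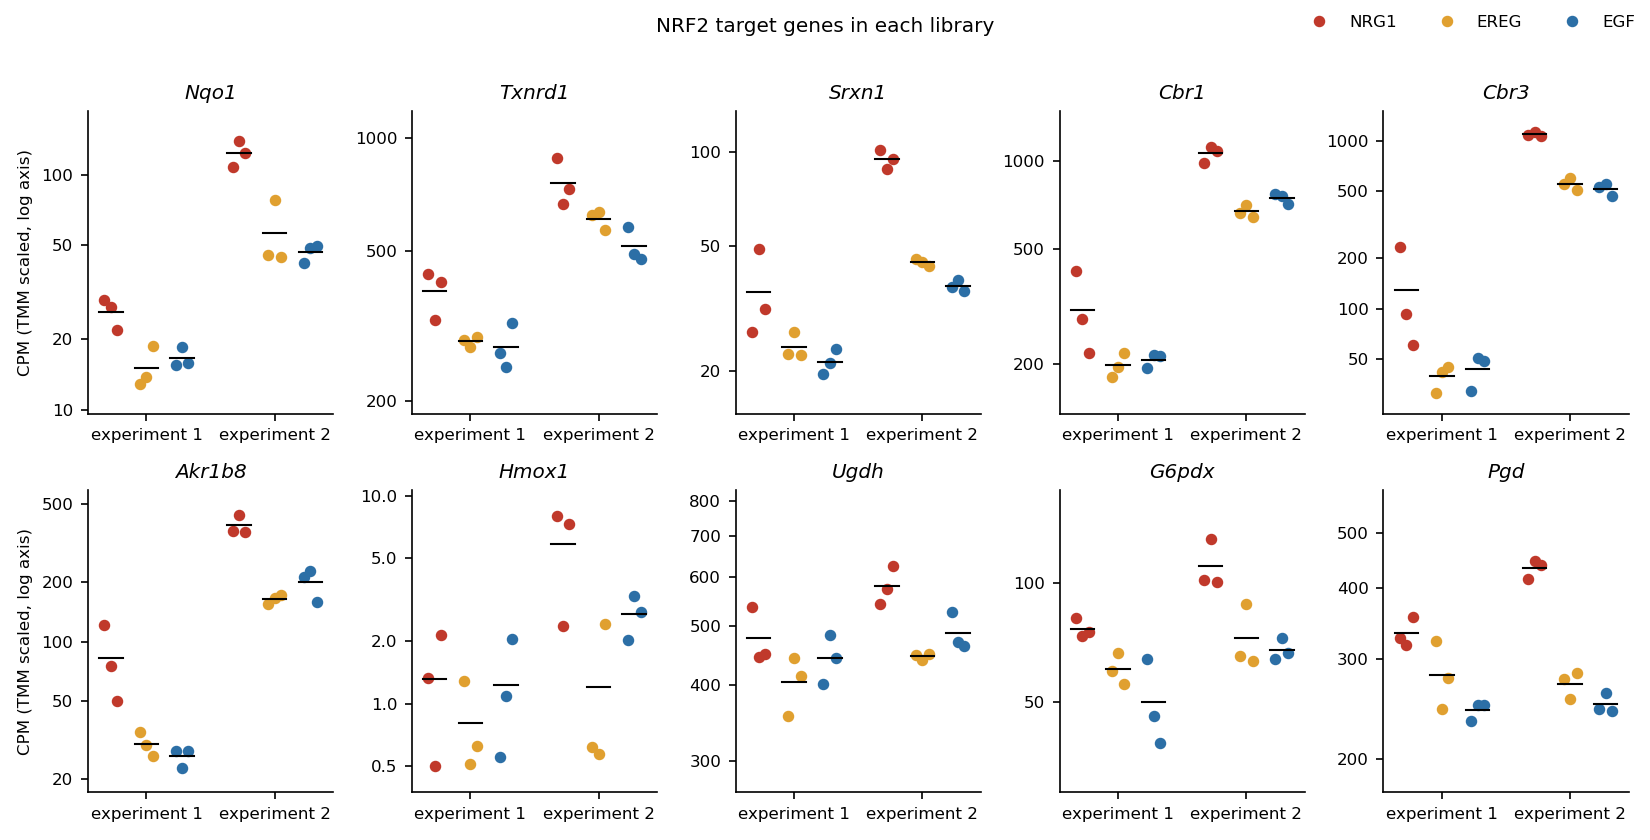
Level of each gene (CPM after TMM scaling, log axis) in each of 18 libraries, by experiment, with NRG1, EREG and EGF from left to right; points are libraries and bars are means of 3. The NRG1 libraries lie above all EGF libraries of the same experiment for 8 of 10 genes in experiment 1 (10.1% of all genes tested). In experiment 2 they do so for 9 of 10 (11% of all genes tested). With every ligand, all libraries of experiment 2 lie above those of experiment 1 for *Nqo1*, *Txnrd1*, *Srxn1*, *Cbr1*, *Cbr3* and *Akr1b8*. The same holds for 8.49% of all genes tested.

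*Nqo1* (chr8:107388225-107403206, minus strand) encodes the NAD(P)H quinone dehydrogenase that reduces quinones straight to hydroquinones and is the usual reporter of NRF2 activity. In experiment 1 its level was 29.3, 27.5 and 21.9 CPM with NRG1, 12.9, 13.8 and 18.7 CPM with EREG, and 15.6, 18.4 and 15.8 CPM with EGF. Experiment 2 gave 108, 140 and 123 CPM with NRG1, 45.6, 78.3 and 44.9 CPM with EREG, and 42.3, 48.8 and 49.9 CPM with EGF. All NRG1 libraries stood above those of both other ligands in each experiment, and EREG replicate 2 of experiment 2 stood above the other EREG libraries. *Nqo1* rose with NRG1 against EGF (log2 fold change 1.12 ± 0.15, SE, edgeR adjusted p = 3.04e-08) and against EREG (1.02 ± 0.14, edgeR adjusted p = 2.45e-07). With EREG against EGF the value was 0.10 ± 0.16 (edgeR adjusted p = 0.984).

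*Txnrd1* (chr10:82833951-82897712, plus strand) encodes cytosolic thioredoxin reductase, the selenoprotein that passes electrons from NADPH to thioredoxin. Its level in experiment 1 was 435, 328 and 415 CPM with NRG1, 290, 277 and 296 CPM with EREG, and 267, 247 and 322 CPM with EGF. In experiment 2 it was 885, 667 and 730 CPM with NRG1, 624, 634 and 569 CPM with EREG, and 579, 490 and 476 CPM with EGF. The NRG1 libraries did not overlap with the others, but in experiment 1 the lowest NRG1 library was only just above the highest EGF library. The rise with NRG1 was 0.52 ± 0.08 against EGF (edgeR adjusted p = 6.28e-07) and 0.37 ± 0.08 against EREG (edgeR adjusted p = 4.34e-04). EREG against EGF gave 0.15 ± 0.08 (edgeR adjusted p = 0.912).

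*Srxn1* (chr2:152105516-152111376, plus strand) encodes sulfiredoxin, which restores peroxiredoxins that have been overoxidized to the sulfinic acid. It had 26.6, 48.9 and 31.4 CPM with NRG1, 22.5, 26.6 and 22.5 CPM with EREG, and 19.5, 21.1 and 23.5 CPM with EGF in experiment 1. The libraries of experiment 2 had 101, 88.3 and 94.8 CPM with NRG1, 45.6, 44.3 and 43.1 CPM with EREG, and 36.9, 38.9 and 36.0 CPM with EGF. The NRG1 libraries of experiment 2 were far above the other 6, whereas in experiment 1 the lowest NRG1 library stood level with the highest EREG library at this precision. *Srxn1* rose by 1.08 ± 0.14 with NRG1 against EGF (edgeR adjusted p = 4.3e-08) and by 0.88 ± 0.14 against EREG (edgeR adjusted p = 3.75e-06). All 3 EREG libraries of experiment 2 lay above the 3 EGF libraries, as they did for 6.76% of all genes tested, and EREG against EGF over both experiments gave 0.20 ± 0.15 (edgeR adjusted p = 0.952).

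*Cbr1* (chr16:93605853-93610505, plus strand) encodes an NADPH-dependent carbonyl reductase with quinones, prostaglandins and lipid aldehydes among its substrates. Its level in experiment 1 was 421, 287 and 219 CPM with NRG1, 180, 196 and 218 CPM with EREG, and 193, 215 and 214 CPM with EGF. In experiment 2 it was 990, 1116 and 1087 CPM with NRG1, 663, 708 and 645 CPM with EREG, and 772, 758 and 715 CPM with EGF. NRG1 replicate 3 of experiment 1 stood next to the EREG and EGF libraries, and NRG1 replicate 1 far above them. *Cbr1* rose by 0.53 ± 0.09 with NRG1 against EGF (edgeR adjusted p = 2.69e-05) and by 0.65 ± 0.09 against EREG (edgeR adjusted p = 7.47e-07). EREG against EGF was at −0.11 ± 0.09 (edgeR adjusted p = 0.952), with all 3 EREG libraries below the EGF libraries in experiment 2, as for 7.73% of all genes tested.

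*Cbr3* (chr16:93683215-93690990, plus strand) lies near *Cbr1* on the same chromosome and encodes a related carbonyl reductase. It had 232, 93.3 and 60.7 CPM with NRG1, 31.6, 42.0 and 45.0 CPM with EREG, and 32.2, 50.4 and 48.6 CPM with EGF in experiment 1. Experiment 2 gave 1089, 1130 and 1079 CPM with NRG1, 553, 602 and 508 CPM with EREG, and 531, 552 and 470 CPM with EGF. The 3 NRG1 libraries of experiment 1 were spread widely and those of experiment 2 closely, and in each experiment they lay above all others. *Cbr3* rose by 1.25 ± 0.24 with NRG1 against EGF (edgeR adjusted p = 0.006) and by 1.22 ± 0.24 against EREG (edgeR adjusted p = 0.00732). EREG against EGF gave 0.03 ± 0.25 (edgeR adjusted p = 0.996).

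*Akr1b8* (chr6:34354119-34368463, plus strand) encodes an aldo-keto reductase that reduces aldehydes and retinal. It had 122, 75.4 and 50.1 CPM with NRG1, 34.8, 29.7 and 26.2 CPM with EREG, and 27.8, 22.8 and 27.6 CPM with EGF in experiment 1. In experiment 2 it had 368, 443 and 361 CPM with NRG1, 155, 166 and 173 CPM with EREG, and 214, 229 and 160 CPM with EGF. NRG1 libraries were above all others in each experiment. The rise with NRG1 was 1.19 ± 0.14 against EGF (edgeR adjusted p = 3.76e-06) and 1.32 ± 0.15 against EREG (edgeR adjusted p = 1.21e-06). EREG against EGF gave −0.13 ± 0.15 (edgeR adjusted p = 0.981).

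*Nqo1*, *Cbr1*, *Cbr3* and *Akr1b8* ranked the 3 NRG1 libraries of experiment 1 alike, with replicate 1 highest and replicate 3 lowest. No other of the 10 genes gave this order. *Srxn1* was highest in replicate 2, *Hmox1* and *Pgd* in replicate 3, and *Txnrd1*, *Ugdh* and *G6pdx* were lowest in replicate 2. Mitochondrial RNA took 0.600% of UMIs in replicate 1, 0.649% in replicate 2 and 0.732% in replicate 3 of these NRG1 libraries. Its part in these orders was not tested. Log2 levels had the mean of each ligand in each experiment and replicate number removed, in 1 fit of all 18 libraries. *Cbr1* and *Cbr3* then had a Pearson r of 0.96 over the 18 libraries and 0.87 over the 15 that are not NRG1 of experiment 1. The NRG1 libraries of experiment 1 entered the fitted replicate values, so r over 15 libraries is not free of them. For *Cbr1* and *Akr1b8* r was 0.75 over 18 and 0.33 over 15 libraries, and for *Cbr3* and *Akr1b8* 0.69 and 0.19. *Ugdh* gave 0.72 over 18 and 0.60 over 15 libraries with *Cbr3*, and 0.67 and 0.535 with *Cbr1*. For *Nqo1* r was 0.64 and 0.51 with *Cbr1*, 0.535 and 0.274 with *Cbr3*, and 0.283 and −0.118 with *Akr1b8*. The median over all 45 pairs of the 10 genes was 0.04, within a range of −0.56 to 0.96. Points of such a correlation share a library and its depth, and it is given as a description. Of the 61-nucleotide windows in the last 500 nucleotides of *Cbr1* transcripts, 1.02% occurred in transcripts of another gene, which was not *Cbr3*, and of those of *Cbr3* and *Akr1b8* 0%.

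**Figure D2:**
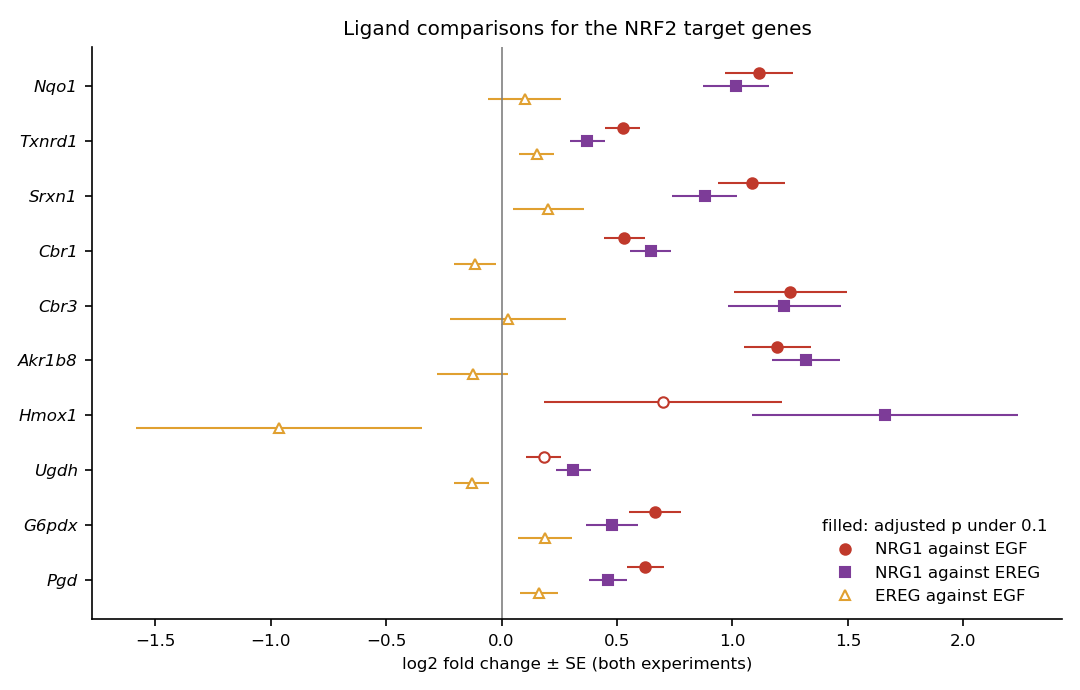
Log2 fold change with its SE for each gene over both experiments, for NRG1 against EGF, NRG1 against EREG and EREG against EGF; filled points passed at an edgeR adjusted p under 0.1. The NRG1 points lie right of 0 for all 10 genes, and the EREG points against EGF are open and, apart from *Hmox1* at −0.96, lie between −0.13 and 0.20.

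*Hmox1* (chr8:75093621-75100589, plus strand) encodes the inducible haem oxygenase, which splits haem into biliverdin, carbon monoxide and iron. It was close to the limit of detection, with 59 UMIs in the 18 libraries together and 1 to 10 UMIs in any library. In experiment 1 its level was 1.33, 0.499 and 2.13 CPM with NRG1, 1.29, 0.512 and 0.624 CPM with EREG, and 0.556, 1.08 and 2.05 CPM with EGF. In experiment 2 it was 7.97, 2.37 and 7.29 CPM with NRG1, 0.616, 0.576 and 2.43 CPM with EREG, and 2.01, 3.30 and 2.77 CPM with EGF. The groups overlapped in each experiment, and NRG1 replicates 1 and 3 of experiment 2 were the highest libraries. In experiment 2 the sums were 23 UMIs with NRG1 (exact Poisson 95% interval 14.6 to 34.5), 6 UMIs with EREG (2.20 to 13.1) and 12 UMIs with EGF (6.20 to 21), where intervals cover counting error only. NRG1 against EGF gave 0.70 ± 0.52 (edgeR adjusted p = 0.482) and EREG against EGF −0.96 ± 0.62 (edgeR adjusted p = 0.939). NRG1 against EREG passed at 1.66 ± 0.58 (edgeR adjusted p = 0.0587), and this call ended when NRG1 replicate 1 (1.31, edgeR adjusted p = 0.23), NRG1 replicate 3 (1.60, edgeR adjusted p = 0.142), EREG replicate 1 (1.403, edgeR adjusted p = 0.184) or EREG replicate 2 (1.54, edgeR adjusted p = 0.125) of experiment 2 was left out. Beside *Hmox1*, the summed CPM of the 7 immune markers in experiment 2 were 10.8 to 13.7 with NRG1, 3.54 to 10.3 with EREG and 5.69 to 7.81 with EGF. In experiment 1 the sums were 2.27 to 6.75 with NRG1, 0.677 to 3.74 with EREG and 1.06 to 6.09 with EGF. Of the 3 immune markers tested 1 was called higher with NRG1 against EREG, where 6.56% of all genes tested were. It was *Cd68* (2.52, edgeR adjusted p = 0.0133), at a mean of only 1.81 CPM. *Itgam* (1.59, edgeR adjusted p = 0.106) and *Lyz2* (−0.67, edgeR adjusted p = 0.581) were not called, and *Lyz2* went the other way. The part of the immune markers in the *Hmox1* values was not tested.

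*Ugdh* (chr5:65413221-65435949, minus strand) encodes the enzyme that oxidizes UDP-glucose to UDP-glucuronate, the sugar donor of glucuronidation. Its level in experiment 1 was 536, 445 and 449 CPM with NRG1, 356, 443 and 413 CPM with EREG, and 401, 483 and 442 CPM with EGF. The libraries of experiment 2 had 542, 575 and 625 CPM with NRG1, 447, 439 and 450 CPM with EREG, and 526, 470 and 463 CPM with EGF. NRG1 and EGF libraries overlapped in experiment 1 and not in experiment 2, where the EREG libraries were also below the EGF libraries, as for 7.73% of all genes tested. *Ugdh* rose with NRG1 against EREG (0.31 ± 0.08, edgeR adjusted p = 0.00365), while NRG1 against EGF was at 0.18 ± 0.08 (edgeR adjusted p = 0.134) and EREG against EGF at −0.13 ± 0.08 (edgeR adjusted p = 0.939). The value against EGF passed when EREG replicate 1 of experiment 2 (0.19, edgeR adjusted p = 0.0953), NRG1 replicate 2 of experiment 1 (0.22, edgeR adjusted p = 0.085) or NRG1 replicate 3 of experiment 1 (0.21, edgeR adjusted p = 0.0745) was left out, and in a fit of the NRG1 and EGF libraries alone (0.19, edgeR adjusted p = 0.0739). Of its end windows 11.1% occurred in *Gm43552*, which had 0 UMIs.

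*G6pdx* (chrX:74409483-74429194, minus strand) encodes glucose-6-phosphate dehydrogenase, the first enzyme of the pentose phosphate pathway and a main source of NADPH. It had 81.9, 73.4 and 75.1 CPM with NRG1, 59.9, 66.5 and 55.6 CPM with EREG, and 64.5, 46.1 and 39.4 CPM with EGF in experiment 1. Experiment 2 gave 102, 129 and 101 CPM with NRG1, 65.3, 88.7 and 63.7 CPM with EREG, and 64.4, 72.6 and 66.5 CPM with EGF. NRG1 libraries lay above all others in each experiment. The rise with NRG1 was 0.66 ± 0.11 against EGF (edgeR adjusted p = 1.72e-05) and 0.48 ± 0.11 against EREG (edgeR adjusted p = 0.00246), and EREG against EGF was at 0.19 ± 0.12 (edgeR adjusted p = 0.939). Of its end windows 6.82% occurred in *G6pd2*, which had 27 UMIs in all libraries beside 2098 of *G6pdx*, and *Ikbkg* (490 UMIs) overlaps that end on the other strand.

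*Pgd* (chr4:149149991-149166771, minus strand) encodes 6-phosphogluconate dehydrogenase, the next NADPH-producing enzyme of that pathway. It had 326, 318 and 355 CPM with NRG1, 323, 245 and 278 CPM with EREG, and 233, 249 and 249 CPM with EGF in experiment 1. In experiment 2 it had 415, 445 and 440 CPM with NRG1, 277, 255 and 283 CPM with EREG, and 245, 262 and 243 CPM with EGF. NRG1 and EGF libraries did not overlap, and EREG replicate 1 of experiment 1 reached the range of the NRG1 libraries. *Pgd* rose by 0.62 ± 0.08 with NRG1 against EGF (edgeR adjusted p = 3.04e-08) and by 0.46 ± 0.08 against EREG (edgeR adjusted p = 2.71e-05). EREG against EGF was at 0.16 ± 0.08 (edgeR adjusted p = 0.905).

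The 2 experiments were next taken apart. NRG1 libraries stood above all EGF libraries for 8 of 10 genes in experiment 1, where 10.1% of all genes tested did so, and for 9 of 10 in experiment 2, where 11% did. Against EREG the counts were 8 of 10 in experiment 1, beside 8.67% of all genes, and 9 of 10 in experiment 2, beside 11.4%. They stood below for none of the 10, against EGF (10.8% of all genes in experiment 1 and 9.80% in experiment 2) or against EREG (8.97% and 10.2%). EREG libraries stood above EGF libraries for none of the 10 in experiment 1, beside 4.04% of all genes, and below for none, beside 4.67%. In experiment 2 they stood above for 1 of 10 (*Srxn1*), beside 6.76%, and below for 2 (*Cbr1* and *Ugdh*), beside 7.73%. By the test, 8 of 10 genes were called higher with NRG1 against EGF in each experiment, where 4.21% of all genes were in experiment 1 and 4.15% in experiment 2. Those not called in either were *Hmox1* and *Ugdh*. *Ugdh* was near the threshold in experiment 2, and passed under 10 alternatives (0.25 to 0.35, edgeR adjusted p between 0.0608 and 0.096). Against EREG, 6 of 10 genes were called higher with NRG1 in experiment 1, where 3.90% of all genes were, and 10 of 10 in experiment 2, where 6.47% were. The 4 not called in experiment 1 were *Hmox1* (0.63, edgeR adjusted p = 0.829), *Ugdh* (0.24, edgeR adjusted p = 0.164), *G6pdx* (0.34, edgeR adjusted p = 0.232) and *Pgd* (0.24, edgeR adjusted p = 0.162). EREG against EGF called none of the 10 in experiment 1, where 0% of all genes were called, and none in experiment 2, where 1.00% were. In these tests *Pgd* in experiment 1 and *Txnrd1* in experiment 2 had an unadjusted edgeR p under 0.05, beside 514 and 1200 of the 12152 genes tested. *Txnrd1* passed in experiment 2 without EREG replicate 3 (0.31, edgeR adjusted p = 0.0781).

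**Figure D3:**
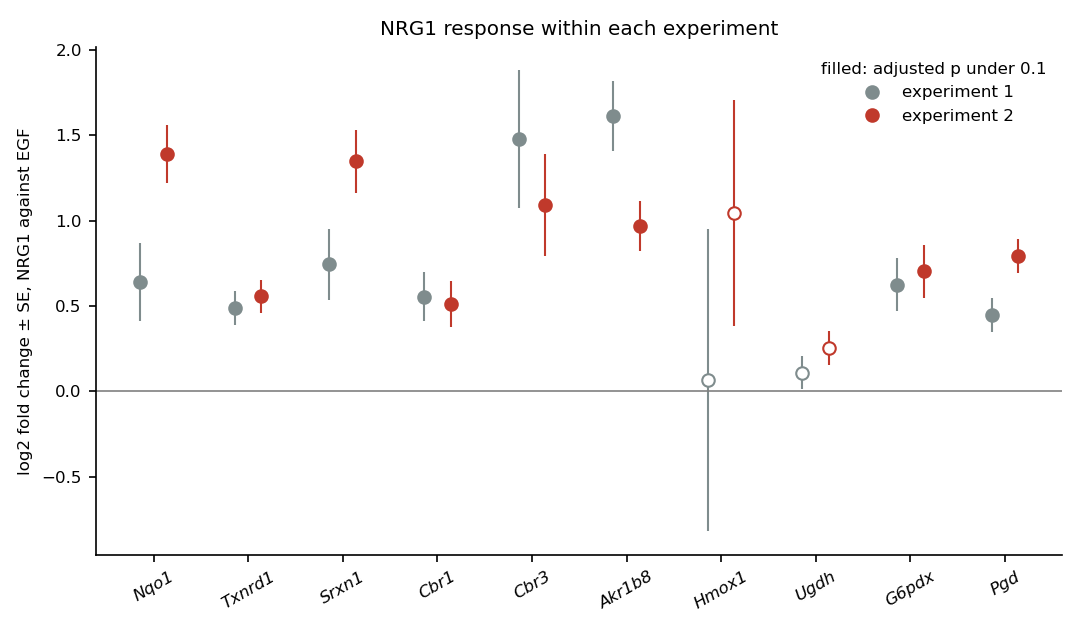
Log2 fold change with its SE of NRG1 against EGF in experiment 1 and experiment 2, for each of the 10 genes; filled points passed at an edgeR adjusted p under 0.1. *Nqo1*, *Srxn1* and *Pgd* have higher values in experiment 2 and *Cbr3* and *Akr1b8* in experiment 1, and none of these differences passed the test.

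The NRG1 response was 1.39 ± 0.17 in experiment 2 and 0.64 ± 0.23 in experiment 1 for *Nqo1*, 1.35 ± 0.18 and 0.74 ± 0.21 for *Srxn1*, and 0.79 ± 0.10 and 0.45 ± 0.10 for *Pgd*, in the same order. For *Akr1b8* it was 0.97 ± 0.15 in experiment 2 and 1.61 ± 0.21 in experiment 1, and for *Cbr3* 1.09 ± 0.30 and 1.48 ± 0.40. *Txnrd1*, *Cbr1* and *G6pdx* had nearly equal values in the 2 experiments. As an interaction of ligand and experiment, none of the 10 genes passed for NRG1, where 1.44% of all genes did, and none for EREG, where 0.0741% did. At an unadjusted edgeR p under 0.05 the NRG1 interaction held *Nqo1*, *Srxn1*, *Pgd* and *Akr1b8*, beside 1221 of the 12152 genes tested. The EREG interaction held none of the 10, beside 901 of all genes tested. By DESeq2 none of the 10 passed in either, with no adjusted p for 1 gene in the first and 5 in the second. The difference was −0.65 ± 0.26 for *Akr1b8* (edgeR adjusted p = 0.343) and passed at −0.88 (edgeR adjusted p = 0.0121) when NRG1 replicate 3 of experiment 1, its lowest NRG1 library, was left out. For *Nqo1* it was 0.75 ± 0.29 (edgeR adjusted p = 0.288).

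Calls within 1 experiment rested on 3 libraries a ligand and were less stable than those over both. In experiment 1 the count of genes called higher was between 4 and 8 when each library was left out in turn, with 5 without EGF replicate 1 and 4 without EGF replicate 2. *Nqo1* lost its call without any of EGF replicates 1, 2 and 3 or NRG1 replicates 1 and 2 (0.48 to 0.71, edgeR adjusted p between 0.134 and 0.372). *Cbr3* lost it without any of the 3 EGF libraries (1.21 to 1.65, edgeR adjusted p between 0.115 and 0.235). *Srxn1* lost it without EGF or NRG1 replicate 2 (0.68 and 0.45), *Cbr1* without EGF or NRG1 replicate 1 (0.47 and 0.25), and *G6pdx* without EGF replicate 2 (0.50). In experiment 2, *Cbr3* lost its call without any 1 of the 6 NRG1 and EGF libraries (1.02 to 1.19, edgeR adjusted p between 0.11 and 0.215) and *Cbr1* without NRG1 replicate 2 or 3 (0.49 and 0.47). *Txnrd1*, *Akr1b8* and *Pgd* kept theirs against EGF in each experiment whichever library was left out. With other settings *Nqo1* in experiment 1 was not called by DESeq2 (0.65, DESeq2 adjusted p = 0.113), nor *Cbr3* in experiment 2 with no filter beyond 1 count (1.09, edgeR adjusted p = 0.11). In a fit of the NRG1 and EGF libraries alone neither *Cbr1* (edgeR adjusted p = 0.123 in experiment 1 and 0.126 in experiment 2) nor *Cbr3* (0.16 and 0.153) was called. Against EREG the count was between 3 and 6 in experiment 1 when a library was left out, 3 without EREG replicate 2, and between 7 and 10 in experiment 2. In experiment 2 *Cbr3* lost its call against EREG without any 1 of 6 libraries (edgeR adjusted p between 0.103 and 0.231). *Hmox1* lost it without any 1 of 4 (0.125 to 0.237) and *Txnrd1* without any 1 of 3 (0.109 to 0.2). In experiment 1 the losses against EREG were *Srxn1* for 4 libraries, *Cbr3* for 3 and *Nqo1* for 2.

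The level under EGF itself differed between the experiments, where a difference between mice and one between experiments cannot be told apart if each experiment used its own mouse. With EGF, 7 of the 10 genes were called higher in experiment 2 than in experiment 1 and none lower, where 17.1% of all genes tested were called higher. All EGF libraries of experiment 2 stood above those of experiment 1 for 6 of the 10, as for 20.1% of all genes. The same held with EREG for 6 (18.1%), with NRG1 for 10 (18.5%) and with all 3 ligands for 6 (8.49%). The carbonyl and aldehyde reductases had the widest gaps. *Cbr3* averaged 518 ± 42.4 CPM in experiment 2 and 43.7 ± 10.0 CPM in experiment 1 (SD, n = 3 each, log2 fold change 3.55 ± 0.38, edgeR adjusted p = 2.49e-05). *Akr1b8* was 2.93 ± 0.19 higher on the log2 scale in experiment 2 (edgeR adjusted p = 8.34e-14), *Cbr1* 1.85 ± 0.14 (edgeR adjusted p = 3.91e-10) and *Nqo1* 1.50 ± 0.21 (edgeR adjusted p = 7.52e-09). *Txnrd1* was 0.89 ± 0.10 higher (edgeR adjusted p = 1.48e-12) and *Srxn1* 0.80 ± 0.21 (edgeR adjusted p = 0.00205). *G6pdx*, at 0.45 ± 0.16 (edgeR adjusted p = 0.029), lost its call without EGF replicate 2 (0.33) or 3 (0.34) of experiment 1 or EGF replicate 3 of experiment 2 (0.39). *Pgd* (0.04 ± 0.10, edgeR adjusted p = 0.842), *Ugdh* (0.14 ± 0.10, edgeR adjusted p = 0.3) and *Hmox1* (1.12 ± 0.80, edgeR adjusted p = 0.319) did not pass. For *Nqo1*, *Txnrd1*, *Cbr1*, *Cbr3* and *Akr1b8* every EGF library of experiment 2 was above every NRG1 library of experiment 1, as for 16.8% of all genes tested.

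Other measures moved with the ligand or the experiment. In experiment 1 mitochondrial RNA took 0.600% to 0.732% of UMIs with NRG1, 0.847% to 1.02% with EREG and 0.979% to 1.20% with EGF. In experiment 2 it took 0.565% to 0.578% with NRG1, 0.637% to 0.799% with EREG and 0.596% to 0.604% with EGF. The nuclear RNA *Malat1* took 0.170% to 0.171% with NRG1, 0.0621% to 0.0846% with EREG and 0.0774% to 0.0844% with EGF in experiment 2, against at most 0.0404% in any library of experiment 1. Summed CPM of the 6 absorptive enterocyte markers were 13980 to 14640 with NRG1, 7789 to 8607 with EREG and 8645 to 9802 with EGF in experiment 2. In experiment 1 they were 11190 to 13010 with NRG1, 8320 to 9890 with EREG and 10010 to 11790 with EGF, so that NRG1 and EGF overlapped. Of these 6 markers 3 were called higher with NRG1 against EGF, where 6.05% of all genes tested were. Lower were all 5 Paneth cell, 4 of 5 goblet cell and 4 of 5 crypt base stem cell markers, where 5.39% of all genes were. Taken apart, 5 of 5 stem cell markers were called lower in experiment 1 (3.77% of all genes) and 1 of 5 in experiment 2 (2.81%). With EGF all 5 stem cell markers were called lower in experiment 2 than in experiment 1 (16.3% of all genes). Their sums were 516 to 553 CPM in experiment 2 and 2086 to 2321 CPM in experiment 1. Called higher with EGF in experiment 2 were 4 of 5 goblet and 4 of 5 enteroendocrine markers (17.1%), and 1 goblet marker was lower. The part of these shifts in the levels of the 10 genes was not tested.

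Of 13 genes that control NRF2, 4 were called higher with NRG1 against EGF (6.05% of all genes tested) and none lower (5.39%). The list median was 0.14. The 4 included *Sqstm1*, an autophagy receptor that sequesters KEAP1 (0.36 ± 0.10, edgeR adjusted p = 0.0163), and *Nfe2l2*, which encodes NRF2 itself (0.25 ± 0.08, edgeR adjusted p = 0.0444). The others were the small MAF genes *Mafg* (0.40 ± 0.13, edgeR adjusted p = 0.0462) and *Maff* (0.51 ± 0.19, edgeR adjusted p = 0.0834). *Keap1* was at 0.21 ± 0.09 (edgeR adjusted p = 0.151) against EGF and passed against EREG at 0.36. *Bach1*, a repressor that competes for the same elements, was at −0.12 ± 0.11 (edgeR adjusted p = 0.583). Taken apart, none of the 13 was called with NRG1 against EGF in experiment 2, where 6.95% of all genes tested were, beside 7.97% in experiment 1. In experiment 1 *Nfe2l2* was called higher against EGF (0.405, edgeR adjusted p = 0.00571, against 0.11, edgeR adjusted p = 0.677, in experiment 2) and the kinase gene *Gsk3b* lower (−0.44, edgeR adjusted p = 0.0899), and no difference between experiments passed for the 13. Against EREG, 5 of the 13 were called higher with NRG1 in experiment 2 (6.47% of all genes) and none lower (4.46%). In experiment 1 that comparison called 2 higher (3.90%) and 1 lower (3.02%).

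All 5 genes of the glutathione branch of the NRF2 targets were called higher with NRG1 against EGF, beside 6.05% of all genes tested. The list median was 0.64. *Gsr*, which encodes the NADPH-dependent glutathione reductase, rose by 0.64 ± 0.08 (edgeR adjusted p = 2.2e-08), the cystine importer gene *Slc7a11* by 2.11 ± 0.20 (edgeR adjusted p = 4.93e-08), the glutathione synthetase gene *Gss* by 0.49 ± 0.09 (edgeR adjusted p = 3.73e-05) and *Gclc*, of the first synthesis step, by 1.18 ± 0.25 (edgeR adjusted p = 0.0116). For 3 of the 5 the NRG1 response differed between the experiments, as for 1.44% of all genes tested. It was 1.61 in experiment 2 and 0.52 in experiment 1 for *Gclc* (edgeR adjusted p of the difference = 1.24e-05), 2.62 and 1.43 for *Slc7a11* (0.0198), and 0.945 and 0.19 for *Gclm*, which encodes the modifier subunit of the same enzyme (0.000506), where *Gclm* was not called in experiment 1. Of 13 thioredoxin and peroxiredoxin genes, with a list median of −0.01, 2 passed, both higher, beside 6.05% of all genes called higher. These were *Prdx6* (0.27 ± 0.07, edgeR adjusted p = 0.0101) and *Prdx5* (0.26 ± 0.08, edgeR adjusted p = 0.0245), while *Txn1*, the substrate of thioredoxin reductase, was at 0.11 ± 0.07 (edgeR adjusted p = 0.389).

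Among 15 tested genes of other carbonyl, quinone and aldo-keto reductases and related enzymes, 4 were called higher and 1 lower with NRG1 against EGF. Of all genes tested 6.05% were called higher and 5.39% lower. *Akr1c14* fell by 0.99 ± 0.17 (edgeR adjusted p = 1.4e-05), whereas *Akr1c12* rose by 0.33 ± 0.09 (edgeR adjusted p = 0.0104) and *Ptgr1*, a prostaglandin reductase gene, by 0.23 ± 0.08 (edgeR adjusted p = 0.0468). The others that rose were *Ephx1*, which encodes an epoxide hydrolase, and *Aldh3a2*, which encodes a fatty aldehyde dehydrogenase, so neither is a reductase gene. The NRG1 response of *Akr1c12* was 0.62 in experiment 2 and 0.02 in experiment 1 (edgeR adjusted p of the difference = 0.023), and that of *Akr1c19* 0.33 and −0.48 (0.000128), called higher in experiment 2 and lower in experiment 1. Of 12 further NADPH and pentose phosphate genes 2 were called higher and none lower, beside the same shares of all genes. They were *Me1*, the cytosolic malic enzyme gene (0.98 ± 0.17, edgeR adjusted p = 1.82e-05), and *Taldo1*, the transaldolase gene (0.35 ± 0.07, edgeR adjusted p = 3.82e-04). The NRG1 response of *Taldo1* was 0.56 in experiment 2 and 0.14 in experiment 1 (edgeR adjusted p of the difference = 0.0717). The cytosolic isocitrate dehydrogenase gene *Idh1* was at 0.03 ± 0.08 (edgeR adjusted p = 0.893).

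Of 10 genes of haem and iron handling 3 were called higher and 1 lower with NRG1 against EGF. Of all genes tested 6.05% were called higher and 5.39% lower. *Ftl1*, a ferritin light chain gene, rose by 0.40 ± 0.08 (edgeR adjusted p = 2.01e-04), *Por*, which encodes the reductase that supplies haem oxygenase with electrons, by 0.45 ± 0.11 (edgeR adjusted p = 0.00402), and the biliverdin reductase gene *Blvrb* by 0.70 ± 0.15 (edgeR adjusted p = 0.00604). *Tfrc*, the transferrin receptor gene, fell by 0.44 ± 0.13 (edgeR adjusted p = 0.0258). The response differed between the experiments for *Blvrb* (1.03 in experiment 2 and 0.17 in experiment 1, edgeR adjusted p = 0.00472), *Tfrc* (−1.08 and −0.14, edgeR adjusted p = 0.0188) and the ferritin heavy chain gene *Fth1* (0.27 and −0.12, edgeR adjusted p = 0.0814). Of 8 tested partners of *Ugdh* 3 were called higher and 1 lower, beside the same shares of all genes. *Ugp2*, which makes its substrate UDP-glucose, rose by 0.53 ± 0.08 (edgeR adjusted p = 4.92e-06), as did the nucleotide sugar transporter gene *Slc35d1* (0.71 ± 0.24, edgeR adjusted p = 0.0511) and the glucuronosyltransferase gene *Ugt2b34* (0.30 ± 0.10, edgeR adjusted p = 0.0529). *Ugt1a1* fell by 1.88 ± 0.70 (edgeR adjusted p = 0.0845) at a mean of only 1.51 CPM. Between EREG and EGF no gene of these 7 lists was called over both experiments or in experiment 1, where 0.00823% and 0% of all genes tested were. Experiment 2 called 1, *Gsr* (0.345, edgeR adjusted p = 0.096), beside 1.00% of all genes tested.

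**Figure D4:**
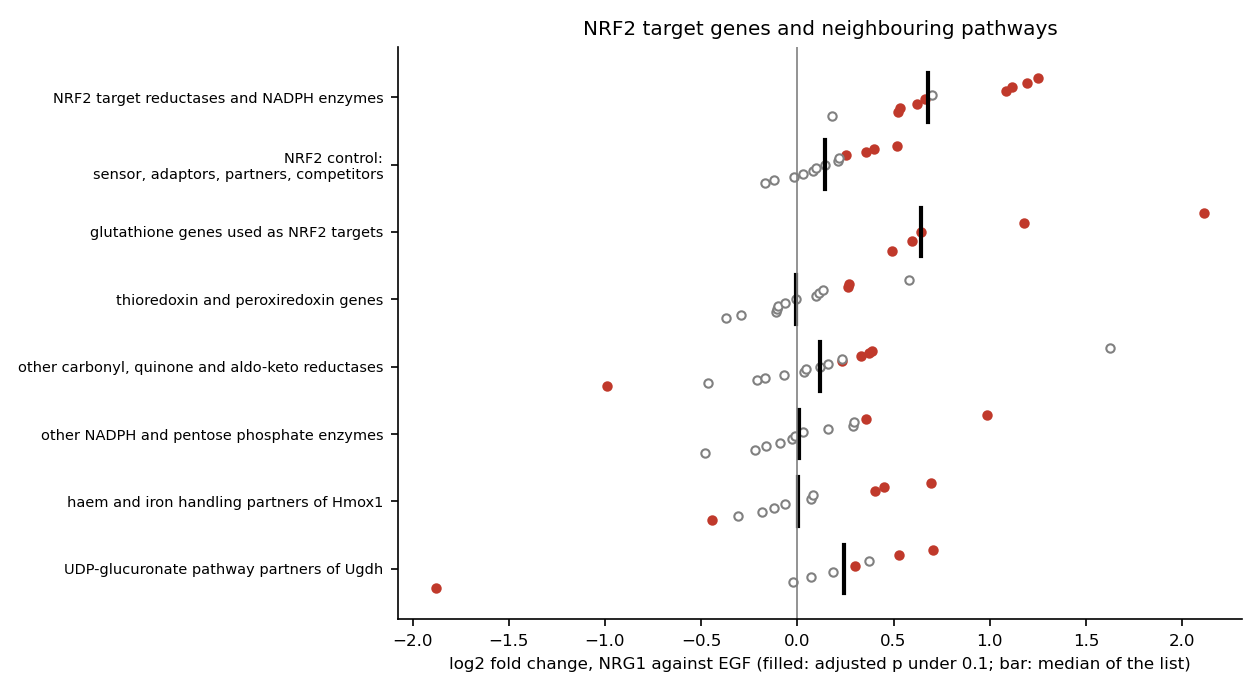
Log2 fold change of NRG1 against EGF for each tested gene of the 10 NRF2 target genes and of 7 related lists; filled points passed at an edgeR adjusted p under 0.1 and black bars are list medians. The medians are 0.68 for the 10 genes and 0.64 for the glutathione genes, and between −0.01 and 0.24 for the other 6 lists.

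The 10 other genes whose levels followed the mean standardized level of the 10 NRF2 targets most closely, after removal of experiment and replicate, had a Pearson r of at least 0.942 over the 18 libraries. They were led by *Nfkbia* (0.98), followed by *Serp1* (0.958), *Sfn* (0.956), *Fam162a*, *Rab6a*, *Ugp2*, *Sprr2a3*, *Gstm3*, *Ctsz* and *Slc7a11*. These values describe libraries that differ by ligand.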

How the data were processed

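RNA of organoids was measured by a 3′ method with UMIs in 18 libraries. STAR 2.7.8a aligned the reads to GRCm38, and BRB-seqTools counted UMIs. The authors deposited these raw counts in a single table. A deposited sample sheet of barcodes pairs each column with ligand, experiment and replicate, and the labelled GEO samples are 2 sequencing pools, replicate 2 in a pool of its own. The submitters' processing notes also name MultiQC and DESeq2. Symbols and coordinates came from GENCODE M21, matched by identifier for 30934 of 31053 genes. A reporter row (6 counts, 2.05e-05% of all) was left out. No source read here says whether counting used strand, and the labels and the methods name different catalogue numbers for EREG.

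A gene was tested if its counts summed to at least 5 and averaged at least 1 after normalization (12152 genes), with edgeR 4.0.16 in R 4.3.3: TMM, robust quasi-likelihood F test, modelled on ligand, experiment and replicate number (12 residual degrees of freedom) or on ligand by experiment with replicate number (10). P-values were Benjamini-Hochberg adjusted over all tested genes, threshold 0.1. The SE is the absolute log2 fold change over the square root of F. Replicate number was kept as a block since the study's design held it. Deviations of libraries with the same number correlated at 0.06 to 0.28 within an experiment (18 pairs) and at −0.12 to 0.28 across experiments (27 pairs). With different numbers they did so at −0.21 to 0.08 within (36 pairs) and −0.231 to 0.225 across (54 pairs). Medians for the same and for different numbers were 0.21 and −0.11 within, and 0.05 and −0.08 across, where the ranges largely overlapped. Profiles with experiment and replicate removed came from limma 3.58.1, and DESeq2 1.42.0 served as an alternative test and scaling. Scripts were tested on simulated data.

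The 10 genes and the related lists were chosen with earlier results of these data known. Named were all 10 genes, of each related list up to 4 genes with the smallest p in NRG1 against EGF plus those a count left to name, and the 10 genes most like the mean profile. *Keap1*, *Bach1*, *Gsk3b*, *Gclm*, *Txn1*, *Aldh3a2*, *Akr1c19*, *Idh1*, *Fth1*, *Cd68*, *Itgam* and *Lyz2* were named after their values were seen.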

Additional observations from a re-analysis of the deposited data

Results flagged for a closer look

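In each ligand's 6 libraries, the highest and the lowest level of each of the 10 genes was compared with its neighbour, and a gap of more than 0.625 of the whole range was marked. Each group pools both experiments, between which several genes differ widely, so the rate of about 1 in 20 that chance gives within 1 population does not apply. Of 30 such groups 1 was marked. *G6pdx* had 88.7 CPM in EREG replicate 2 of experiment 2, against 66.5 CPM in the next EREG library, a gap of 0.669 of the range. No interaction of ligand and experiment passed for any of the 10 genes.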

How the results depend on the processing

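The counts of genes called over both experiments were recomputed with DESeq2 size factors, DESeq2's test, other filters on low counts, other blocks, fewer libraries and each library left out. With NRG1 against EGF between 8 and 9 of the 10 genes passed in all of these, with NRG1 against EREG between 8 and 10 (9 to 10 when a library was left out), and with EREG against EGF none. Between the experiments with EGF the count was 7, or 6 to 7 when a library was left out. For the NRG1 response between experiments it was 0, and 1 with no filter beyond 1 count, 1 with replicate blocks within experiment, and 0 to 1 when a library was left out, 1 only without NRG1 replicate 3 of experiment 1; the gene was *Akr1b8* each time. With no replicate block the counts were 8 for NRG1 against EGF, 10 for NRG1 against EREG and 0 for EREG against EGF. Within experiment 1 the block changed 2 calls: without it *Nqo1* against EGF was at 0.65 and *Srxn1* against EREG at 0.59 (edgeR adjusted p = 0.108 for each), and no other call of the 10 genes changed. Within an experiment, alternatives other than leaving out a library gave 6 to 8 genes for NRG1 against EGF in experiment 1 and 7 to 9 in experiment 2 (6 to 9 when a library was left out), and against EREG 4 to 8 and 9 to 10. With counts summed per ligand and experiment, *Hmox1* and *Ugdh* were not called against EREG (1.73 and 0.32, edgeR adjusted p = 0.125 and 0.129), nor was *Hmox1* by DESeq2 (1.70, DESeq2 adjusted p = 0.103). No called value changed sign. The cause of these changes was not tested. At 1 to 10 UMIs per library, the SE of *Hmox1* between NRG1 and EGF was 0.52.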
